A study of Mus musculus with 15 samples.

Results

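Neurotrophins and their receptors were examined in the kidneys of mice carrying the renal carcinoma fusion PRCC-TFE3. The rule named 6 genes: the receptors Ngfr, Ntrk2 and Ntrk3, the ligands Bdnf and Ntf3, and the sorting receptor Sort1. Of these, 5 had a table entry annotated with that symbol alone, among 22180 genes tested, and Ntf3 was not analysed here. Where a gene had several entries, the entry of highest mean across the 15 arrays stood for it. The members were chosen by name, with the higher Ngfr values of Cre+ kidneys in these arrays already known, so the differences of Ngfr between Cre+ and Cre- kidneys are given as a description, without a test. The other members were listed with earlier results known too, and their tests say only whether a difference exceeded the spread between mice.

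All mice carried the Rosa26-LSL-PRCC-TFE3 knock-in, in which Cre recombinase removes a stop before the fusion gene. Cre came from the KSP-Cre transgene, driven by the promoter of Cdh16, a cadherin of kidney tubule epithelium. By this design the fusion is directed to tubule cells, and in which cells it was switched on was not tested here. At 4 months of age 4 mice without Cre (PRCC-TFE3; KSP-Cre-, here Cre-) and 4 with Cre (PRCC-TFE3; KSP-Cre+, here Cre+) were taken. At 7 months of age there were 3 Cre- and 4 Cre+ animals. Each array held kidney RNA of 1 mouse. A control with Cre alone was not among the groups, and effects of the fusion and of the Cre transgene cannot be told apart.

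Neurotrophins are secreted growth factors of the nervous system. They are made as precursors, and proteases of the furin family, plasmin and matrix metalloproteinases cut these to mature ligands. Mature BDNF acts through TrkB (Ntrk2) and neurotrophin-3 through TrkC (Ntrk3), both receptor tyrosine kinases. Ngfr encodes p75NTR, a death domain receptor of the TNF receptor superfamily that binds every neurotrophin, and the precursors bind p75NTR together with sortilin (Sort1) or its VPS10 domain relatives. Outside the nervous system p75NTR marks neural crest derivatives, some mesenchymal cells and follicular dendritic cells, and sortilin also carries proteins to lysosomes.

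Because TFE3 and its relatives bind E-box letters, the 250 bases before the annotated start site were read from RefSeq promoter windows (GRCm38.p6) for the member with the largest difference, Ngfr, and for the member that was lower, Bdnf. Promoter windows matched 3 of the 5 measured members, Ngfr, Ntrk2 and Bdnf. The Ngfr window is chr11:95587699-95587948 on the minus strand and the Bdnf window, at the most upstream of 7 annotated start windows, is chr2:109674450-109674699 on the plus strand. Capitals mark ACGTG or its reverse complement CACGT, 5 of the 6 letters of the E-box CACGTG, a motif added after the sequences had been read.
Ngfr: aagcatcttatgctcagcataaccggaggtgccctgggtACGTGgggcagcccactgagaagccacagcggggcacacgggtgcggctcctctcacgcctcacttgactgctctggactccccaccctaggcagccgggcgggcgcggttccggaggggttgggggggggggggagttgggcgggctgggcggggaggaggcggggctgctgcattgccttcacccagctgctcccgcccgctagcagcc
Bdnf: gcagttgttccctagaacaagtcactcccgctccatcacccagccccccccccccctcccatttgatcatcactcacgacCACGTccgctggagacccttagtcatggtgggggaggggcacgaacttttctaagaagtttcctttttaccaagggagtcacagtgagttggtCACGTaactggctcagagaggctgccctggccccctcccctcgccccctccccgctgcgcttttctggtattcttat
The full E-box CACGTG, which reads the same on both strands, and the letters CATGTG or their reverse complement CACATG were in neither of these windows. Over 32817 windows of this length, ACGTG on either strand was in 16.6%, CACGTG, which contains it, in 6.02% and CATGTG in 12.3%. The Ntrk2 window held none of these motifs. Of the 7 Bdnf windows, 2 held ACGTG, 1 held CATGTG and 0 held CACGTG. These are matches of letters and no record of binding.

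Array medians over the genes tested lay between 4.899 and 5.127 on the log2 scale, and pairs of arrays of 1 group correlated at 0.983 to 0.994 across genes. The medians were 4.941 to 4.988 in Cre- and 4.955 to 5.127 in Cre+ arrays at 4 months. At 7 months they were 4.899 to 5.013 and 4.986 to 5.055. Centring each array on its median changed the shares of all genes higher and lower, at 4 months from 77.3% to 49.3% higher among the genes called. The table has no detection calls. As a guide to background, the Y-linked genes averaged 2.64 to 2.98 in the 7 arrays where they were low, and Xist was at 3.35 to 3.93 in the other 8. The labels do not give sex, and each group held 2 arrays with high Y-linked values. Tfe3, a part of the fusion, had a 4-month difference of 0.03 (SE 0.09, adjusted p = 0.92) and a 7-month difference of 0.22 (SE 0.10, adjusted p = 0.14). Whether its probes can read the fusion transcript was not tested. In these bulk samples, fewer cells of a type and less RNA per cell cannot be told apart.

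The p75NTR gene Ngfr was the member with the widest gap between the genotypes. In Cre- kidneys at 4 months it stood at 4.41, 4.59, 4.62 and 4.46 on the log2 scale, and in Cre- kidneys at 7 months at 4.57, 4.73 and 4.56. In Cre+ kidneys it stood at 7.95, 8.10, 8.18 and 7.89 at 4 months and at 8.07, 7.96, 8.48 and 8.39 at 7 months. All 8 Cre+ arrays lay far above all 7 Cre- arrays, with 3.26 between the highest Cre- and the lowest Cre+ value at 4 months and 3.23 at 7 months. The Cre- values lay below the median gene of their arrays and the Cre+ values well above it.

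The mean of Ngfr was 4.52 ± 0.10 (SD, n = 4) in Cre- and 8.03 ± 0.13 (SD, n = 4) in Cre+ kidneys at 4 months, a difference of 3.51 (SE 0.12) or 11.4-fold, rank 11 of 22180 genes by size of rise. At 7 months the means were 4.62 ± 0.10 (SD, n = 3) and 8.23 ± 0.25 (SD, n = 4), a difference of 3.60 (SE 0.13) or 12.2-fold, rank 15. Groups that did not overlap, with Cre+ higher, were found for 6.31% of all genes at 4 months and 14% at 7 months. In the order of group means, 7-month Cre+ was highest, then 4-month Cre+, 7-month Cre- and 4-month Cre-. Neighbours of the same genotype did not differ beyond their spread: Cre+ kidneys differed by 0.20 between ages (SE 0.12, adjusted p = 0.30) and Cre- kidneys by 0.10 (SE 0.13, adjusted p = 1.0). The 4-month and 7-month differences themselves differed by 0.09 (SE 0.17, adjusted p = 0.83), with a 95% interval from -0.27 to 0.46. Among arrays with high Y-linked values the Ngfr difference was 3.51 at 4 months and 3.37 at 7 months, and among those with low values it was 3.51 and 3.86.

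**Figure D1:**
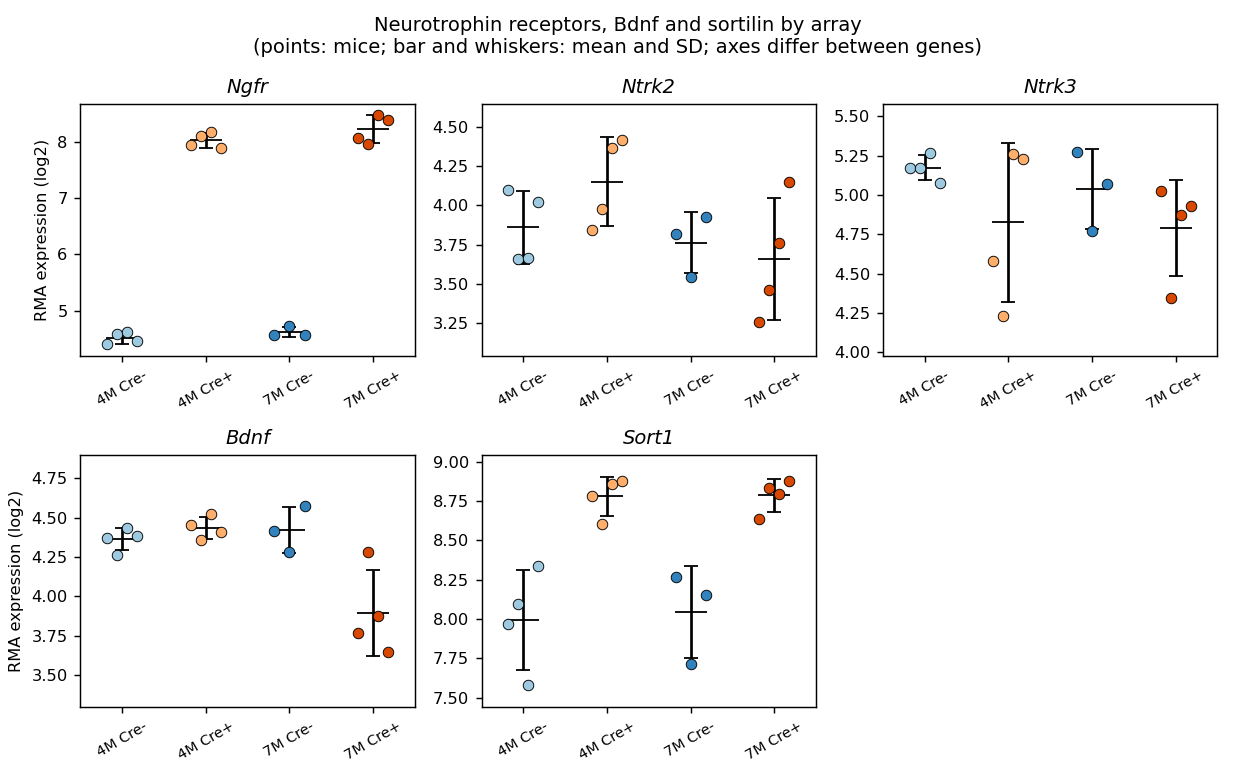
Log2 expression of the 5 measured members in each of the 4 groups, 1 point per mouse, with the mean as a bar and the SD as whiskers and a separate axis for each gene. Ngfr lies between 4.41 and 4.73 in Cre- and between 7.89 and 8.48 in Cre+ mice, Sort1 is higher in Cre+ mice at both ages, and Bdnf is lower in 7-month Cre+ mice.

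The Trk receptors did not follow Ngfr. Ntrk2, the receptor of BDNF, stood at 4.09, 3.66, 3.67 and 4.02 in Cre- and at 3.84, 3.98, 4.36 and 4.41 in Cre+ kidneys at 4 months. At 7 months it stood at 3.82, 3.54 and 3.92 in Cre- and at 3.26, 3.46, 3.76 and 4.15 in Cre+ kidneys. The groups overlapped at both ages, at levels near the guide to background. The difference was 0.29 (SE 0.18, adjusted p = 0.47, 95% interval -0.09 to 0.67) at 4 months and -0.10 (SE 0.20, adjusted p = 0.77, interval -0.52 to 0.31) at 7 months. Between ages Cre+ kidneys differed by -0.49 (SE 0.18, adjusted p = 0.096), a difference that passed with the replicate number as a block (adjusted p = 0.046), with the Y-linked mean as a covariate (adjusted p = 0.046) or without 7-month Cre+ replicate 4 (-0.65, adjusted p = 0.028).

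Ntrk3, the receptor of neurotrophin-3, was even among the 4-month Cre- kidneys, at 5.17, 5.17, 5.27 and 5.07. In 4-month Cre+ kidneys it was split, at 4.58 and 4.23 in replicates 1 and 2 and at 5.26 and 5.23 in replicates 3 and 4. At 7 months it stood at 5.27, 4.77 and 5.07 in Cre- and at 5.02, 4.35, 4.87 and 4.93 in Cre+ kidneys. The groups overlapped, and the differences were -0.35 (SE 0.20, adjusted p = 0.43, 95% interval -0.77 to 0.08) at 4 months and -0.25 (SE 0.22, adjusted p = 0.48, interval -0.71 to 0.22) at 7 months.

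The split of Ntrk3 at 4 months ran along the Y-linked values, which were high in Cre+ replicates 1 and 2 and low in 3 and 4. Within the arrays of high Y-linked values Ntrk3 differed by -0.81 at 4 months (SE 0.22, n = 2 and 2, adjusted p = 0.092) and within those of low values by 0.12 (SE 0.13, n = 2 and 2, adjusted p = 0.65). Neither passed, and the difference between them was not tested. For the 7-month mice the high arrays gave -0.23 (adjusted p = 0.55) and the low arrays, with 1 control, -0.38 (adjusted p = 0.15).

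Of the ligands among the members, Bdnf was measured, and it fell in Cre+ kidneys at 7 months. It stood at 4.37, 4.26, 4.43 and 4.38 in Cre- and at 4.45, 4.36, 4.52 and 4.41 in Cre+ kidneys at 4 months, a difference of 0.07 (SE 0.12, adjusted p = 0.82). At 7 months Cre- kidneys were again at 4.41, 4.28 and 4.58, whereas Cre+ kidneys were at 3.77, 4.28, 3.87 and 3.65. Replicate 2 of that group touched the lowest Cre- value to the second decimal and the other 3 lay below it. Groups without overlap, with Cre+ lower, were found for 15.2% of all genes at 7 months.

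Bdnf fell by 0.53 in Cre+ kidneys at 7 months (SE 0.13, 1.44-fold lower, adjusted p = 0.006) and by 0.54 between 4 and 7 months within Cre+ kidneys (SE 0.12, adjusted p = 0.0081), a comparison that shares the 7-month Cre+ arrays with the first. In that age comparison 11% of all genes were lower without overlap. Within Cre- kidneys the ages differed by 0.06 (SE 0.13, adjusted p = 1.0). The Cre effects at the 2 ages differed by -0.60 (SE 0.18, 95% interval -0.98 to -0.23), which did not pass over all genes (adjusted p = 0.091) but did without 7-month Cre+ replicate 2 (-0.73, adjusted p = 0.02). Within arrays of high Y-linked values Bdnf differed by -0.40 at 7 months (SE 0.19, adjusted p = 0.19), and within those of low values by -0.65 (SE 0.17, adjusted p = 0.038, against 1 control). The levels of Bdnf lay below the array medians in every array, and 3 of the 4 Cre+ values at 7 months lay within the guide to background, so the size of its fall is uncertain.

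Sort1, which encodes sortilin, was higher in Cre+ kidneys at both ages by a modest amount. At 4 months it stood at 7.97, 8.09, 7.58 and 8.33 in Cre- and at 8.78, 8.60, 8.86 and 8.88 in Cre+ kidneys. At 7 months it stood at 8.27, 7.71 and 8.16 in Cre- and at 8.64, 8.84, 8.79 and 8.88 in Cre+ kidneys. Every Cre+ array lay above every Cre- array, and the Cre+ arrays were the tighter, with SDs of 0.13 and 0.11 against 0.32 and 0.29. Groups without overlap, with Cre+ higher, were found for 6.31% of all genes at 4 months and 14% at 7 months.

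Sort1 rose 1.72-fold at 4 months (log2 change 0.79, SE 0.15, adjusted p = 0.0049) and 1.67-fold at 7 months (0.74, SE 0.16, adjusted p = 0.0024), and the difference of these effects was -0.04 (SE 0.22, adjusted p = 0.95, 95% interval -0.50 to 0.42). Its second table entry, at 3.89 to 4.87 over the arrays, did not pass at either age (0.16, SE 0.16, adjusted p = 0.69, and -0.20, SE 0.18, adjusted p = 0.49). Averaging both entries gave a 4-month difference of 0.47 (adjusted p = 0.046) and a 7-month difference of 0.27 (adjusted p = 0.17), so the 7-month call rests on the brighter entry.

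Counting Ngfr, 2 of the 5 members were higher and 0 lower at 4 months, where 2.73% of all genes were higher, 0.803% lower and 3.53% changed in either direction. At 7 months 2 were higher and 1 lower, against 11.7% and 10.8% of all genes and 22.5% in either direction, and nothing is read from these counts because the members were chosen with Ngfr known. Between 4 and 7 months 1 member was lower and 0 higher in Cre+ kidneys (6.71% and 4.12% of all genes) and 0 changed in Cre- kidneys (0.00451% of all genes, with 2.71% at an unadjusted p below 0.05). With limma, 0 of the 5 passed in the difference between ages of the Cre effects (2.14% of all genes, 0.96% higher and 1.18% lower). At an unadjusted p below 0.05, Bdnf passed there, as did 15.9% of all genes.

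Relatives of the members were examined too. Ntf5 (neurotrophin-4), a further ligand, stood at 3.95 to 4.13 in Cre- and 4.23 to 4.54 in Cre+ kidneys at 4 months, ranges that did not overlap, with Cre+ higher. Such groups were found for 6.31% of all genes at 4 months, and these levels of Ntf5 lay near the guide to background. The difference of 0.28 (SE 0.12) did not pass (adjusted p = 0.24), nor did the 0.17 (SE 0.13, adjusted p = 0.41) at 7 months.

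Among the 5 VPS10 receptors, Sort1 alone rose at 4 months, and at 7 months Sort1, Sorcs1 and Sorcs2 rose and 0 fell. Sorcs2, a co-receptor of p75NTR for precursors, stood at 4.05, 4.22, 3.98 and 4.23 in Cre- and at 4.16, 4.48, 4.24 and 4.33 in Cre+ kidneys at 4 months. At 7 months it stood at 4.19, 3.99 and 3.93 in Cre- and at 4.90, 4.82, 5.02 and 4.75 in Cre+ kidneys. The 4 Cre+ arrays at 7 months lay above every other array, whereas the 4-month groups overlapped. At 7 months, Cre+ was higher than Cre- without overlap for 14% of all genes.

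Sorcs2 had a 4-month difference of 0.19 (SE 0.10, adjusted p = 0.41) and a 7-month rise of 0.83 (SE 0.11, adjusted p = 3.6e-05), and the difference of these effects was 0.65 (SE 0.15, adjusted p = 0.036). That difference between ages did not pass when any of 11 of the 15 arrays was left out (0.59 to 0.67, adjusted p up to 0.092) or with the replicate block (0.65, adjusted p = 0.066). Within Cre+ kidneys Sorcs2 rose by 0.57 between ages (SE 0.10, adjusted p = 0.002). Sorcs1 rose by 0.59 at 7 months (SE 0.16, adjusted p = 0.014) with overlapping groups. Its levels lay near the guide to background, at 3.22 to 3.77 in Cre- and 3.60 to 4.38 in Cre+ kidneys. The call was lost without 7-month Cre- replicate 1 (0.49, adjusted p = 0.075) or 2 (0.53, adjusted p = 0.068) and when these 2 groups were fitted alone (adjusted p = 0.061). Sorl1, a sorting receptor of the amyloid precursor, did not pass at 4 months (-0.03, SE 0.11, adjusted p = 0.93) or 7 months (0.07, SE 0.12, adjusted p = 0.75). Sorcs3 did not pass either (-0.28, SE 0.15, adjusted p = 0.39, then 0.21, SE 0.16, adjusted p = 0.41).

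**Figure D2:**
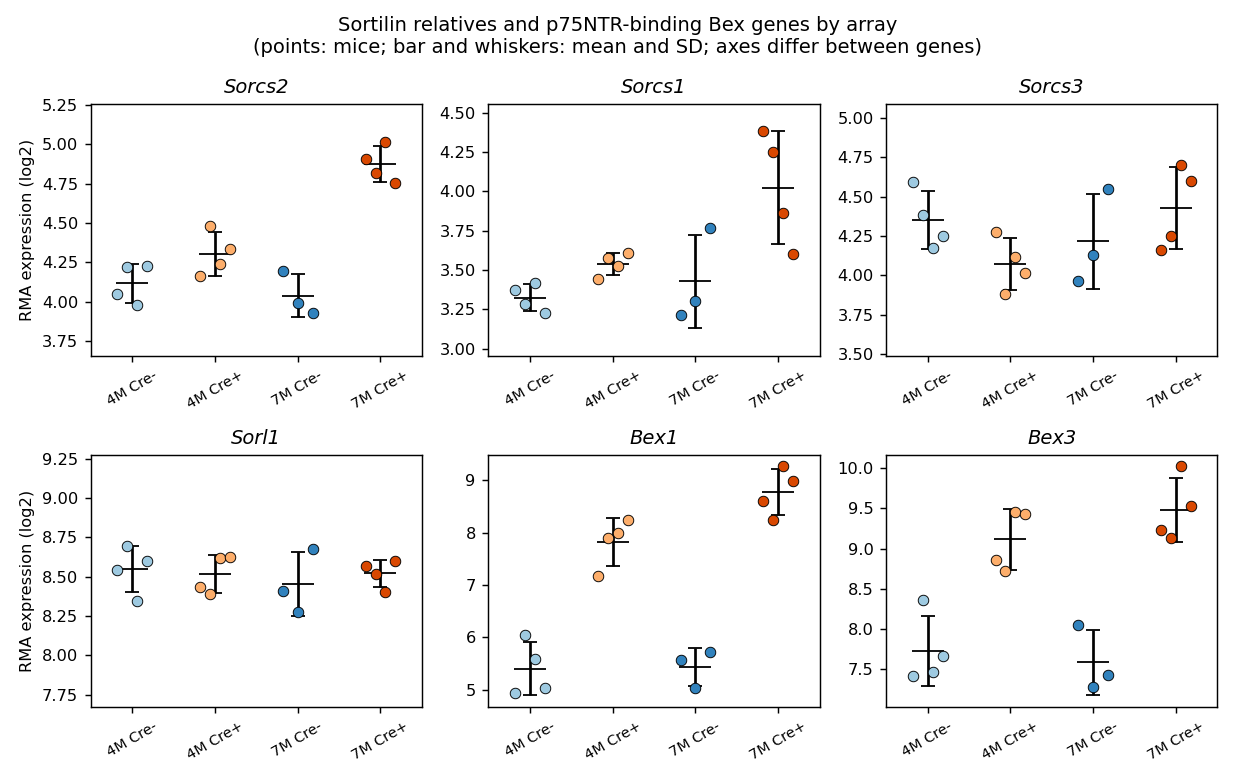
Log2 expression of the VPS10 receptors other than Sort1 and of Bex1 and Bex3, whose products bind p75NTR, 1 point per mouse, with the mean as a bar and the SD as whiskers. Sorcs2 reaches 4.75 to 5.02 in 7-month Cre+ mice, above all other arrays, and Bex1 and Bex3 are higher in Cre+ mice at both ages.

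The genes whose profile over the 15 arrays was closest to Ngfr were Nr4a1, an orphan nuclear receptor, Snap91, a clathrin adaptor of nerve terminals, and Ramp3, a partner of the calcitonin-like receptor. Likeness was the root mean square difference between profiles, each centred on its own mean, and was 0.26, 0.30 and 0.32 on the log2 scale. Nr4a1 differed between Cre+ and Cre- kidneys by 3.64 (SE 0.17) at 4 months and 4.18 (SE 0.18) at 7 months, Snap91 by 3.17 (SE 0.16) and 3.31 (SE 0.17), and Ramp3 by 3.13 (SE 0.13) and 2.90 (SE 0.15). These were chosen for their likeness, so their differences are a description. For the other 4 measured members the group means spanned less than 1 on the log2 scale, and no like genes were named.

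**Figure D3:**
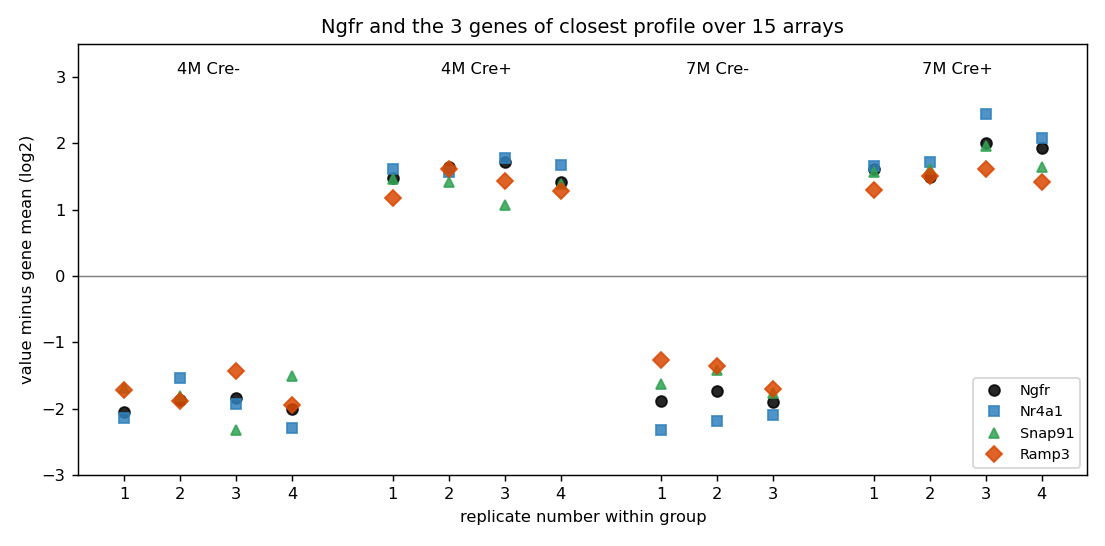
Values of Ngfr, Nr4a1, Snap91 and Ramp3 on each array, each gene minus its own mean over 15 arrays on the log2 scale, by group and replicate number. All 4 genes are below 0 on the 7 Cre- arrays and above 0 on the 8 Cre+ arrays.

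Partners of p75NTR and genes of its signalling included other genes that differed at both ages. Of 15 measured, 3 rose and 0 fell at 4 months, with a median change of 0.20 against 0.05 over all genes, and 6 rose and 0 fell at 7 months, with a median of 0.27 against -0.04. Over all genes 2.73% rose and 0.803% fell at 4 months, and 11.7% rose and 10.8% fell at 7 months, the shares against which the counts of this and the following lists stand. The lists were chosen with earlier results of these data known, so nothing is read from their counts. Tests of their genes say only whether a difference exceeded the spread between mice. The 3 partners that rose at 4 months were Bex3, Bex1 and Rtn4r. Bex3, also known as the p75NTR-associated cell death executor, stood at 7.41 to 8.36 in Cre- and 8.72 to 9.46 in Cre+ kidneys at 4 months and at 7.27 to 8.05 and 9.13 to 10.02 at 7 months. It rose 2.63-fold (1.39, SE 0.25, adjusted p = 0.0028) and 3.73-fold (1.90, SE 0.26, adjusted p = 4.9e-05).

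Bex1, a relative that also binds p75NTR, stood at 4.94 to 6.05 in Cre- and 7.18 to 8.25 in Cre+ kidneys at 4 months and at 5.03 to 5.72 and 8.24 to 9.26 at 7 months. It rose 5.36-fold (2.42, SE 0.27, adjusted p = 2.8e-05) and 10.1-fold (3.33, SE 0.29, adjusted p = 4.7e-07), with no overlap at either age. Of all genes, 6.31% at 4 months and 14% at 7 months were higher without overlap. Bex genes are close copies of each other, so probes may read more than 1 of them. Rtn4r, the Nogo receptor that pairs with p75NTR, rose by 0.66 (SE 0.14) and 0.83 (SE 0.15). At 7 months Nradd, a p75NTR relative with a death domain, rose by 0.85 (SE 0.15), and Adam10 and Adam17, membrane sheddases of which the latter cuts p75NTR, rose by 0.70 (SE 0.10) and 0.43 (SE 0.11). The call of Adam17 was lost under at least 1 other setting.

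Proteases and sorting factors of the precursors went both ways. Of 13 measured, 1 rose and 1 fell at 4 months (median -0.05) and 3 rose and 4 fell at 7 months (median 0.05). Pcsk6, a furin-like convertase, fell by 1.83 (SE 0.17, 3.55-fold lower, adjusted p = 2.3e-06) and 2.00 (SE 0.18, 3.99-fold lower, adjusted p = 5.5e-07), from 6.97 to 7.42 in Cre- to 5.06 to 5.61 in Cre+ kidneys at 4 months. At 7 months Furin fell by 0.42 (SE 0.10), Pcsk5 by 0.48 (SE 0.10) and Plat, tissue plasminogen activator, by 0.66 (SE 0.16).

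Mmp7, a metalloproteinase able to cut neurotrophin precursors, rose by 1.62 (SE 0.28, adjusted p = 0.0025) at 4 months and 3.99 (SE 0.30, adjusted p = 1e-07) at 7 months, from Cre- means of 3.57 and 3.79 near the guide to background. Its dimmer entry, at 2.77 to 3.28 over the arrays, stood at -0.04 and -0.10, and the mean of both entries gave 0.79 and 1.95. Mmp3, a stromelysin, rose by 0.83 (SE 0.20) at levels near the guide to background (2.82 to 3.06 in Cre- and 3.59 to 4.00 in Cre+ kidneys), and Plau, urokinase, by 0.46 (SE 0.14) at 7 months, the call of Plau being lost under at least 1 other setting.

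Adaptors and signalling proteins of the Trk receptors had 0 of 20 members past the test at 4 months (median 0.04). At 7 months 6 rose, Tiam1 (0.86, SE 0.20), Grb2 (0.55, SE 0.11), Shc1 (0.49, SE 0.11), Ptprs (0.49, SE 0.14), Plcg1 (0.44, SE 0.12) and Gab2 (0.37, SE 0.13), and 2 fell, Frs3 (-0.53, SE 0.11) and Gab1 (-0.42, SE 0.12), with a median of 0.09. These proteins serve many receptors besides the Trk family, and the calls of Ptprs, Plcg1, Gab2 and Gab1 were lost under at least 1 other setting. Genes that respond to Trk and other growth factor signals had 0 of 20 past the test at 4 months (median 0.07). At 7 months 3 rose, Egr1, an immediate early transcription factor (1.41, SE 0.28), Plaur, the urokinase receptor (0.82, SE 0.16), and Fos (0.43, SE 0.14), and 3 fell, Dusp6, a phosphatase of ERK (-0.57, SE 0.19), Spry4 (-0.53, SE 0.18) and Spred2 (-0.44, SE 0.14), the last pair inhibitors of the same pathway, with a median of -0.06. For the response genes the 7-month shares lay near those of all genes. Nothing is read from the counts of either list, because both were chosen with earlier results of these data known. The calls of Fos, Dusp6, Spry4 and Spred2 were lost under at least 1 other setting.

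Other receptors of the TNF receptor superfamily, most with a death domain like p75NTR, had 2 of 8 rising and 1 falling at both ages. Tnfrsf10b, the mouse TRAIL receptor, rose by 0.87 (SE 0.13) and 1.02 (SE 0.14), and Eda2r, a receptor of ectodysplasin, by 0.84 (SE 0.15) and 1.18 (SE 0.16). Eda2r lacks a death domain, and its Cre- means of 3.61 and 3.75 lay within the guide to background. Tnfrsf21, death receptor 6, fell by 0.40 (SE 0.10) and 1.15 (SE 0.11), and these effects differed by -0.74 (SE 0.15, adjusted p = 0.019). The 4-month call of Tnfrsf21 was lost under at least 1 other setting.

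Ligands and sorting partners of sortilin had 3 of 16 rising and 0 falling at 4 months (median 0.03) and 3 rising and 4 falling at 7 months (median -0.07). The 3 genes that rose at both ages were Grn, the progranulin gene (0.62, SE 0.14, and 1.23, SE 0.15), Psap, prosaposin (0.52, SE 0.10, and 0.68, SE 0.11), and Gga2, an adaptor of lysosomal sorting (0.67, SE 0.13, and 0.90, SE 0.14). At 7 months Lpl, lipoprotein lipase, fell by 1.30 (SE 0.20), Lrpap1, the receptor-associated protein that also binds sortilin, by 0.95 (SE 0.11), Ntsr1, a neurotensin receptor, by 0.46 (SE 0.12) and Smpd1, acid sphingomyelinase, by 0.45 (SE 0.15). Ntsr1 stood at 3.54 to 3.71 in these Cre+ kidneys, within the guide to background. A dimmer entry of Gga2 stood at -0.07 and -0.43 and did not pass, and averaging its entries gave 0.30 (adjusted p = 0.18) and 0.24 (adjusted p = 0.19). The calls of Gga2, of Grn at 4 months, and of Ntsr1 and Smpd1 were lost under at least 1 other setting. Grn is also abundant in macrophages, whose markers had a median change of 0.57 at 4 months and 1.53 at 7 months, and their part in its rise was not tested.

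**Figure D4:**
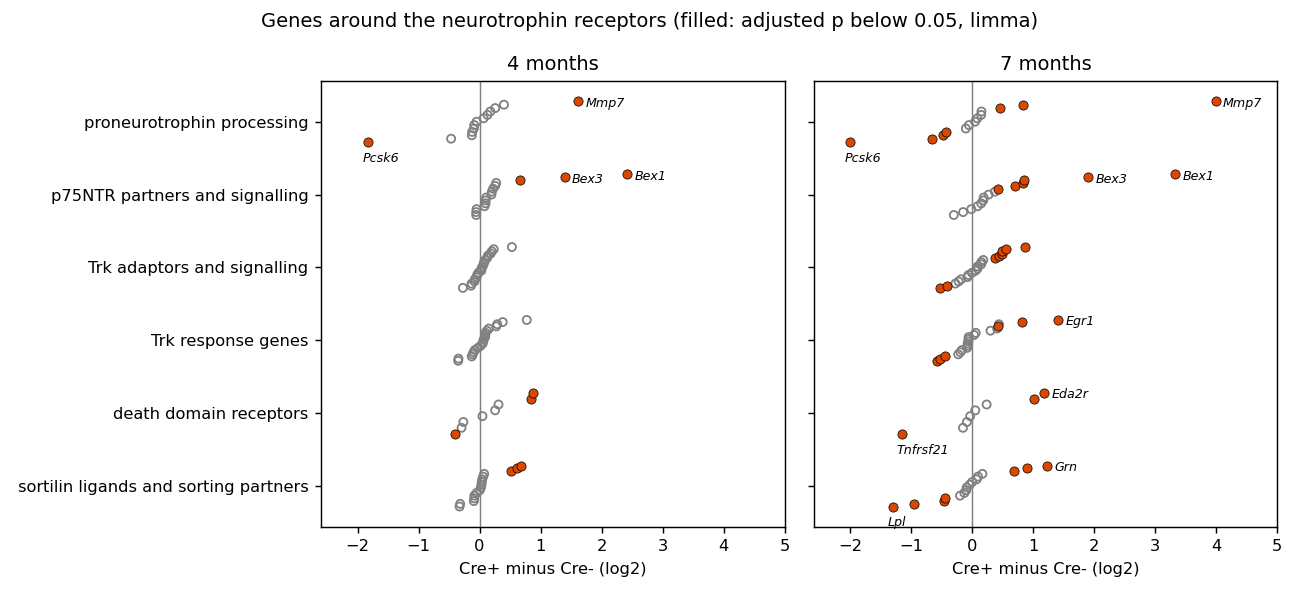
Log2 difference between Cre+ and Cre- kidneys at 4 months and at 7 months for each measured gene of 6 lists around the receptors, filled where the adjusted p from limma was below 0.05. Bex1, Bex3 and Pcsk6 stand out at both ages, and Mmp7 moves from 1.62 to 3.99.

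Markers of cells that can carry p75NTR were set beside Ngfr. Of 7 measured Schwann cell markers 0 rose at either age, and Erbb3, also an epithelial receptor, fell at 7 months (-0.54, SE 0.14, a call lost under at least 1 other setting). The mean of that list lay at 4.68 to 4.83 in Cre- and 4.64 to 4.85 in Cre+ kidneys at 4 months and at 4.67 to 4.83 and 4.49 to 4.79 at 7 months. Erbb3, which enters this mean, stood at 8.02 to 9.16 over the arrays, so the mean does not give the level of the other markers. Sox10, the defining glial factor, stood at 3.53 to 3.74 and 3.44 to 4.23 at 4 months, within the guide to background except for the highest array, and differed by 0.11 (SE 0.15, adjusted p = 0.77) and at 7 months by -0.14 (SE 0.16, adjusted p = 0.58). Of 10 nerve markers 0 passed at either age, and the list mean was at most 3.56 in Cre- and 3.40 to 3.65 in Cre+ kidneys at 4 months, where the groups overlapped. At 7 months it was 3.49 to 3.61 in Cre- and 3.40 to 3.46 in Cre+ kidneys, so that every Cre+ array was lower. All these list means lay within the guide to background, and their difference was not tested. Groups without overlap, with Cre+ lower, were found for 15.2% of all genes at that age.

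Among 8 follicular dendritic cell markers 1 rose at 4 months, and the list mean was 5.91 to 6.23 in Cre- and 5.89 to 6.27 in Cre+ kidneys. At 7 months 4 rose, with list means of 5.97 to 6.19 and 6.68 to 7.03. Vcam1, an adhesion molecule that endothelium and injured tubules also make, rose at 4 months (0.92, SE 0.20, adjusted p = 0.016, a call lost under at least 1 other setting) and at 7 months (3.22, SE 0.22, adjusted p = 2.8e-08). The other 3 that rose at 7 months were Cxcl13, a chemokine (1.76, SE 0.35), Clu, a secreted chaperone (0.83, SE 0.21), and Cr2, a complement receptor (0.57, SE 0.19), the calls of Clu and Cr2 being lost under at least 1 other setting. Their 4-month differences did not pass, at -0.42 (SE 0.32) for Cxcl13, 0.39 (SE 0.20) for Clu and 0.02 (SE 0.17) for Cr2. At 7 months Cr2 stood at 3.40 to 3.75 in Cre- kidneys, within the guide to background, and at 3.88 to 4.57 in Cre+ kidneys. Fibroblast markers had 4 of 9 rising at 4 months, with list means of 6.13 to 6.67 in Cre- and 6.44 to 7.27 in Cre+ kidneys that overlapped, and 5 of 9 at 7 months, with means of 6.18 to 6.54 and 7.47 to 7.55. Col1a1, a collagen, rose by 1.32 (SE 0.20) and 2.43 (SE 0.21). Pericyte and smooth muscle markers had 0 of 9 past the test at 4 months and 1 rising at 7 months. The part of fibroblasts and follicular dendritic cells in the Ngfr difference was not tested.

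Leukocyte markers rose and tubule markers fell with age in the Cre+ comparisons, beside the members that changed at 7 months. Macrophage markers had 3 of 11 rising at 4 months and 11 of 11 at 7 months, where the list mean lay at 5.79 to 6.18 in Cre- and 7.27 to 7.67 in Cre+ kidneys, and Adgre1, a macrophage surface receptor, rose by 1.93 (SE 0.25). Lymphocyte markers had 2 of 9 and 8 of 9 rising. Kidney tubule markers had 2 of 11 falling at 4 months and 7 of 11 at 7 months, with a median of -0.76 and list means of 9.99 to 10.31 and 9.26 to 9.51, and Cdh16, whose promoter drives Cre, fell by 0.43 (SE 0.13), a call lost under at least 1 other setting. Podocyte markers had 3 of 5 falling and endothelial markers 2 of 8 falling at 7 months, with 0 of each past the test at 4 months. The part of these shifts in the 7-month differences of Bdnf, Sorcs1 and Sorcs2 was not tested.

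**Figure D5:**
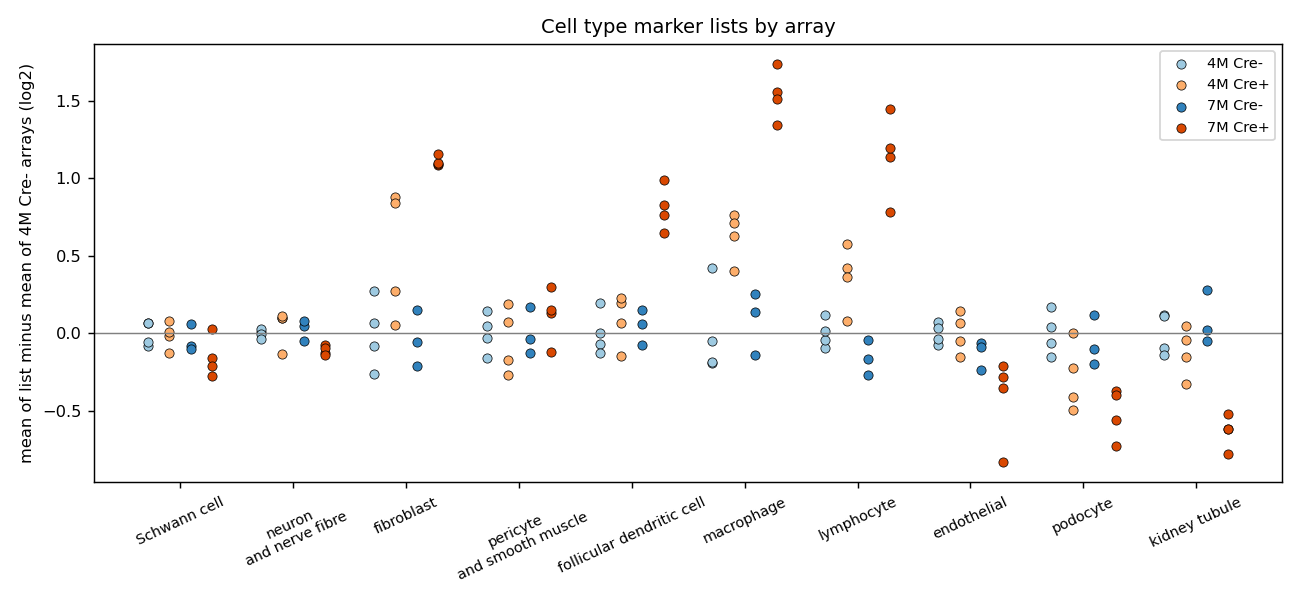
Mean of each cell type marker list on each array minus its mean over the 4-month Cre- arrays, on the log2 scale, 1 point per mouse. The nerve list lies at 3.40 to 3.65 before subtraction, within the guide to background. It overlaps between Cre- and Cre+ mice at 4 months and is lower in every Cre+ than Cre- mouse at 7 months. Macrophage, lymphocyte, fibroblast and follicular dendritic cell lists are highest in 7-month Cre+ mice.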

How the data were processed

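Kidney RNA was hybridised to Affymetrix Mouse Gene 2.0 ST arrays. The deposited values are log2 values, made by the authors with RMA in Partek 6.6 per the labels and the submitters' processing notes, and the log2 scale was read from the values (1.04 to 13.12). Of 41345 entries, 23521 had 1 gene symbol, 1814 several and 16010 none, and 23328 symbols were checked by Entrez identifier against RefSeq (GRCm38.p6). The highest entry per gene left 22180 genes, with no filter.

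Using limma 3.58.1 in R 4.3.3 (lmFit, eBayes), the 15 arrays entered 1 linear model with a mean per group. Tests were two-sided, and p-values were adjusted by Benjamini and Hochberg's method across the 22180 genes, with 0.05 as threshold. In place of the submitters' analysis of variance, limma pools the spread of groups of 3 or 4 mice. The procedure was tested on simulated data. Members, lists and naming rules (members and relatives always, genes past the test from each list, the 3 genes of closest profile) were chosen with earlier results of these data known. Alternatives were a dim-gene filter, quantile and median scaling, trend and robust variance, fits of 2 groups, the replicate number as a block, a Y-linked covariate, the mean of entries and each array left out. After the data had been seen, fits by Y-linked level and of single entries were added. Same-numbered arrays deviated together where their Y-linked levels matched and not where these differed. Between the ages in Cre+ kidneys all 4 pairs matched, and all 4 correlations were above 0.1. Whether same-numbered mice were paired cannot be told from this. The number of arrays limits precision.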

Additional observations from a re-analysis of the deposited data

Results flagged for a closer look

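The effect of Cre differed between ages, by the interaction test in limma over all genes, for 6 of the 60 genes examined, against 2.14% of all genes. Most of the 60 were named because they passed a test between Cre+ and Cre- kidneys, so their share is not comparable with that of all genes. Sorcs2 had a difference of effects of 0.65 (adjusted p = 0.036), Mmp7 of 2.38 (adjusted p = 0.0069), Tnfrsf21 of -0.74 (adjusted p = 0.019), Lrpap1 of -0.63 (adjusted p = 0.031) Cxcl13 of 2.18 (adjusted p = 0.023) and Vcam1 of 2.30 (adjusted p = 0.0017). Of the 5 measured neurotrophin genes and sortilin, none did so.

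A single array stood apart from the other 3 of its group, by Dixon's criterion, in 7 of 180 groups examined, where chance alone gives about 1 in 20. At 7 months in Cre+ kidneys the highest array was at 7.65 for Plat, 7.73 for Grb2, 5.84 for Tiam1 and 5.11 for Eda2r. At 4 months the highest Cre- array was at 4.57 for Fos and 5.60 for Egr1, and the lowest Cre+ array was at 6.64 for Gab2. No array stood apart in this way for Ngfr, Ntrk2, Ntrk3, Bdnf or Sort1 in the groups of 4, and the group of 3 was not examined.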

How the results depend on the processing

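Of 19 named genes called at 4 months, 14 kept the call without each array in turn and under every other setting that fitted them. The other 5 lost it under at least 1 (Adgre1, Gga2, Grn, Tnfrsf21 and Vcam1). At 7 months 34 of 53 kept it and 19 lost it, among them Sort1 and Sorcs1. A gene left out by the filter on dim genes, such as Bdnf or Sorcs2, was counted without that setting. Under the settings that kept all arrays of both groups Ngfr stayed between 3.42 and 3.61, and without 1 array between 3.46 and 3.69. Among arrays of high or low Y-linked values alone its 7-month difference was 3.37 and 3.86. Bdnf stayed past the test at 7 months under 7 other settings (highest adjusted p = 0.035) and without any array (0.034). The filter on dim genes kept 3 of the 5 members and left out Bdnf and Ntrk2.

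Counts over all genes moved more. As deposited 606 genes were higher and 178 lower at 4 months (77.3% higher), and after centring 497 and 511 (49.3%). The lower genes numbered 287 after quantile normalization and 324 with the Y-linked covariate. At 7 months 2597 and 2394 (52.0% higher) became 2337 and 3609 (39.3%). In the difference between ages, the 213 higher genes became 359 with quantile normalization and 321 with centring, and the 262 lower genes 433 with the Y-linked covariate. Leaving out 1 array gave 370 to 904 higher and 72 to 197 lower at 4 months, 108 to 228 and 117 to 288 in the difference between ages, and 604 to 949 and 956 to 1523 between ages in Cre+ kidneys. Between ages in Cre- kidneys 1 gene passed, Gm7609, named after its value was seen, and 0 to 1 passed without 1 array and 0 with 2 groups alone (600 genes had an unadjusted p below 0.05 with limma).

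Deviations of same-numbered arrays correlated at -0.47 to 0.30 over 21 pairs, 11 of them above 0.1. Every pair above 0.1 had matching Y-linked levels, and every pair below 0 had a high and a low level. Because the correlations ran along the Y-linked level, they cannot show whether same-numbered mice were paired. Between the ages in Cre+ kidneys all 4 pairs were above 0.1 (0.17 to 0.30). In both of those groups replicates 1 and 2 had high and 3 and 4 low Y-linked values, and the block brought the call of Ntrk2 past the threshold (adjusted p = 0.046) and changed no call of another member. With the replicate block 614 genes were higher and 181 lower at 4 months, 2398 and 2329 at 7 months, 185 and 233 in the difference between ages, and 0 between ages in Cre- kidneys. Of the calls given above, the block ended those of Tnfrsf21 at 4 months, of Gab2, Dusp6, Spry4 and Smpd1 at 7 months and of Sorcs2 in the difference between ages (adjusted p = 0.066).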
